A study of Mus musculus with 12 samples.

Results

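Cyclic nucleotide phosphodiesterases (PDEs) hydrolyse cAMP and cGMP and so end the signals that adenylyl and guanylyl cyclases start. The genes described here are *Pde1a*, *Pde2a*, *Pde4a*, *Pde4b*, *Pde4d*, *Pde7b*, *Pde8b* and *Pde10a*, found by gene symbol in the list of poly(A) sites (PASs) that the authors deposited. These 8 genes hold 31 of the 56204 entries of the list, which covers 16627 genes. A PAS is the position at which a transcript is cleaved and receives its poly(A) tail. The PASs listed for a gene on its own strand are thus read here as ends of its mRNA isoforms, which was not tested for single sites. The choice among them is alternative cleavage and polyadenylation (APA), which changes the 3′UTR when the sites share the last exon and can change the coding sequence when a site lies in an intron.

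The list comes from 3′READS, a method that sequences the 3′ ends of poly(A)+ RNA, applied to acute hippocampal mini-slices of C57BL/6 wild-type mice labelled as 3 month old, from which the dentate gyrus had been trimmed. There were 4 groups of 3 libraries, control and LTP slices collected 1 hr or 3 hr after treatment, and each library is labelled with an animal number. Chemical LTP was induced over 10 min with 50 µM forskolin, joined in the second part by 30 mM KCl and 10 mM Ca2+, and control slices received 0.2% DMSO for the same time. Slices of the same animal were divided between LTP and control, and libraries were made only from samples in which *Arc* and the short *Homer1* isoform had risen by RT-qPCR. Slices contain neurons and glia together, so a listed PAS cannot be placed in a cell type.

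The list carries 12 columns of read counts, but nothing in their names ties them to the labelled samples, and they were not used. The results below are therefore the identity, place and spacing of the PASs listed for the PDE genes in this tissue. How abundant each isoform was, and whether it differed between LTP and control slices, was not analysed here. The list is shared by all libraries, so the values have no replicate error, and a site with few reads counts as much as one with many. Positions are on mm9, the build named in the submitters' processing notes. Since no mm9 sequence was at hand, the bases around the sites, including the poly(A) signals, were not analysed here.

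Forskolin, the agent used to induce LTP, activates adenylyl cyclases, and cAMP-hydrolysing PDEs act on the product. PDE4, PDE7 and PDE8 enzymes are specific for cAMP, and PDE4 enzymes are the targets of rolipram. PDE1, PDE2 and PDE10 enzymes hydrolyse both cAMP and cGMP. PDE1 is activated by Ca2+ and calmodulin, PDE2 is stimulated by cGMP, and PDE10A is best known from striatal neurons. The catalytic domain of these enzymes lies toward the C-terminal end of the protein, the end encoded by the last exons of the gene.

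The region labels placed 21 of the 31 entries in exon3, taken to mean the 3′-most exon, 8 in introns and 2 in a class named UA. Intronic entries are labelled either intron_Comp or intron_Skip, read here as composite terminal exons and skipped terminal exons, and the PDE genes had 5 and 3 of these. All 8 genes had at least 1 exon3 PAS, against 90.7% of all listed genes. At least 2 exon3 PASs, enough for 3′UTR isoforms of different length, were listed for 6 of the 8 genes, against 44.9% of all listed genes. An intronic PAS was listed for 3 of the 8 genes, against 33.5%. These shares are given as a description, with no test. No PAS of these genes was listed under another gene.

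**Figure D1:**
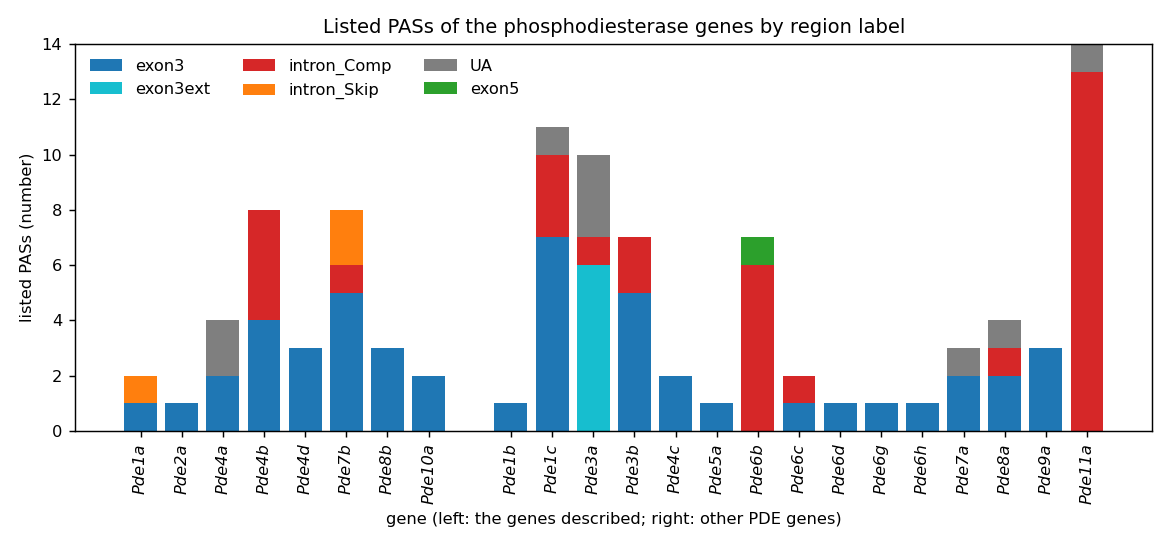
Number of listed PASs (vertical axis) for each PDE gene (horizontal axis), stacked by region label, with the 8 genes described on the left and the 15 other listed PDE genes on the right. *Pde4b* and *Pde7b* have 8 sites each, the most on the left, and *Pde11a* has 14, of which 13 are labelled intron_Comp.

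Among the cAMP-specific genes, *Pde4b* (ENSMUSG00000028525.16, plus strand of chromosome 4) had 8 PASs in 2 classes of 4. Its intronic PASs, all labelled intron_Comp, lay at 102160654, 102215135, 102276052 and 102276115. The first was 117658 nt upstream of the first exon3 PAS and the second 63177 nt upstream. The remaining intronic sites were 63 nt apart and lay 2260 and 2197 nt upstream of the first exon3 PAS. Of all intron_Comp entries upstream of the first exon3 PAS of their gene, 7.96% lay nearer to it than the last of these, while 88.1% lay nearer than the first. *Pde4b* thus held intronic sites both far upstream of its first exon3 PAS and close to it. Its exon3 PASs were at 102278312, 102278409, 102279414 and 102279864, with gaps of 97, 1005 and 450 nt. They formed an upstream pair and a pair of more widely spaced downstream sites, 1552 nt from first to last.

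*Pde7b* (ENSMUSG00000019990.15, minus strand of chromosome 10) also had 8 PASs, 5 of them labelled exon3. On the minus strand, transcription runs toward lower positions. The exon3 PASs lay at 20119351, 20119298, 20118733, 20118534 and 20118361 in that order, with gaps of 53, 565, 199 and 173 nt and a span of 990 nt. This was the largest number of exon3 PASs among the 8 genes. The 3 intronic PASs were all far upstream of the first exon3 PAS. A site labelled intron_Comp at 20385454 was 266103 nt upstream of the first exon3 PAS, farther than 95.9% of the intron_Comp entries upstream of the first exon3 PAS of their gene. Sites labelled intron_Skip followed at 20320853 and 20272612, 201502 and 153261 nt upstream of the first exon3 PAS. Only 5.82% of all listed genes had an intron_Skip PAS. The median distance of intron_Skip entries from the first exon3 PAS was 23102 nt over the list, so both *Pde7b* sites lay beyond the 75th percentile of 67221 nt. No site of another gene was listed between the *Pde7b* sites.

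*Pde4a* (ENSMUSG00000032177.17, plus strand of chromosome 9) was the only one of the 8 genes with PASs labelled UA. These lay at 20969302 and 20969455 and carry the minus strand in their names, opposite to the gene. They were 47969 and 47816 nt upstream of the first exon3 PAS. Entries of this label were listed for 13.8% of all genes. The exon3 PASs of *Pde4a* were at 21017271 and 21017692, 421 nt apart, and no intronic PAS was listed.

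*Pde4d* (ENSMUSG00000021699.17, plus strand of chromosome 13) had 3 PASs, all labelled exon3, at 110744876, 110745671 and 110746172. The gaps were 795 and 501 nt, and the outermost sites were 1296 nt apart. *Pde4b* and *Pde4d* encode closely related enzymes with several isoforms from alternative promoters. The list gave intronic PASs for *Pde4b* and none for *Pde4d* or *Pde4a*.

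*Pde8b* (ENSMUSG00000021684.17, minus strand of chromosome 13) encodes a cAMP-specific PDE of high affinity and had 3 exon3 PASs, at 95795875, 95794473 and 95794409. The first was set apart by 1402 nt, the widest gap between neighbouring exon3 PASs in the 8 genes, and the other two were 64 nt apart. This was the only one of the 8 genes with sites of another gene between its own. *Wdr41* is listed on the opposite strand with 11 PASs, and 2 of them, labelled exon3ext, lay at 95794472 and 95794855 between the *Pde8b* sites. The former was 1 nt from the second *Pde8b* PAS. The label exon3ext is read as sequence beyond the annotated end of a gene, so the listed ends of *Pde8b* and *Wdr41* overlapped tail to tail. The sites carry opposite strands in the list, and how far reads of either gene could have been entered under the other was not tested.

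**Figure D2:**
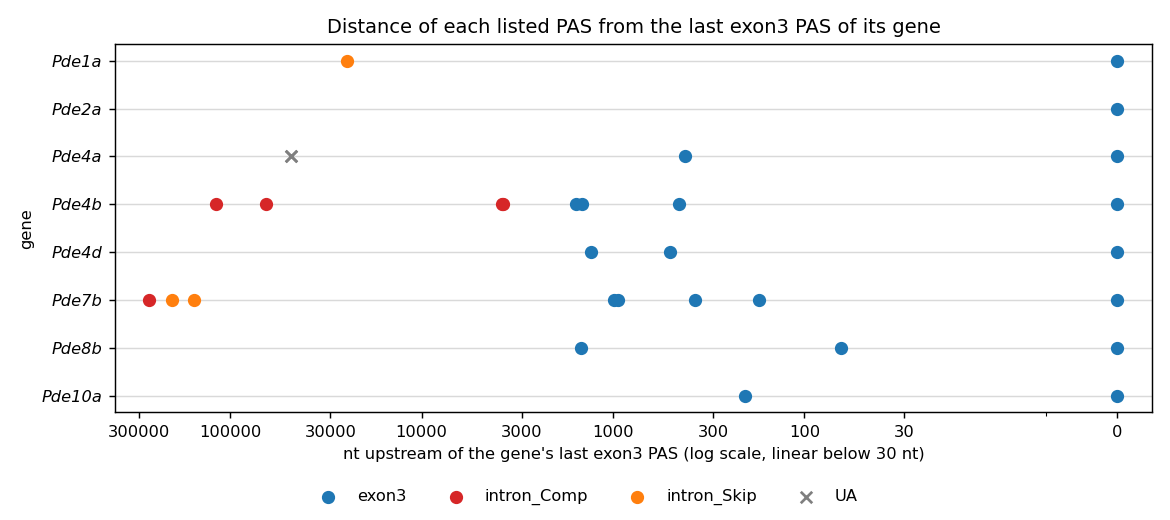
Distance of each listed PAS upstream of the last exon3 PAS of its gene, in nt, on an axis that is logarithmic above 30 nt and linear below (horizontal axis), for the 8 PDE genes (vertical axis). Colours give the region label and crosses mark UA sites on the strand opposite to the gene. The intronic sites of *Pde7b* and the first 2 of *Pde4b* lie at least 64729 nt upstream, while the last 2 of *Pde4b* lie 3812 and 3749 nt upstream.

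*Pde1a*, *Pde2a* and *Pde10a* encode PDEs that hydrolyse both cyclic nucleotides. *Pde1a* (ENSMUSG00000059173.19, minus strand of chromosome 2) had a PAS labelled intron_Skip at 79699182 and a single exon3 PAS at 79674610, which was 24572 nt further downstream. This distance was near the middle of the list, since 52.2% of intron_Skip entries lay nearer to the first exon3 PAS of their gene. *Pde2a* (ENSMUSG00000110195.1, plus strand of chromosome 7) had a single PAS, labelled exon3, at 108661333. A single listed site was found for 32.9% of all genes. *Pde10a* (ENSMUSG00000023868.17, plus strand of chromosome 17) had exon3 PASs at 9179305 and 9179510, 205 nt apart, and no other site.

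The spacing of the exon3 PASs sets how much 3′UTR sequence the isoforms of a gene can differ by. In the 6 genes with at least 2 such sites, the outermost were 205 nt apart in *Pde10a*, 421 nt in *Pde4a*, 990 nt in *Pde7b*, 1296 nt in *Pde4d*, 1466 nt in *Pde8b* and 1552 nt in *Pde4b*. The median was 1143 nt, beside a median of 817 nt over all genes with 2 or more exon3 PASs. *Pde10a* had a wider span than 21.2% of those genes and *Pde4b* than 70.5%, so none of the 6 lay at an end of the distribution. The 13 gaps between neighbouring exon3 PASs ranged from 53 to 1402 nt, with a median of 421 nt against 259 nt over the list. Gaps of 100 nt or less made up 3 of the 13, in *Pde4b*, *Pde7b* and *Pde8b*, against 28.7% of gaps over the list. In each of the 6 genes, the span was shorter than the longest 3′UTR that GENCODE M21 annotates for the gene on GRCm38. This 3′UTR was 4992 nt in *Pde10a* and 1773 nt in *Pde8b*, the genes where the span took up the smallest and the largest part of it. Lengths alone were compared, since the list and the annotation use different builds. Sites read as beyond the annotated end carry the label exon3ext and do not enter the span. A span shorter than the annotated 3′UTR was therefore largely fixed by the label and is no test of the sites.

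**Figure D3:**
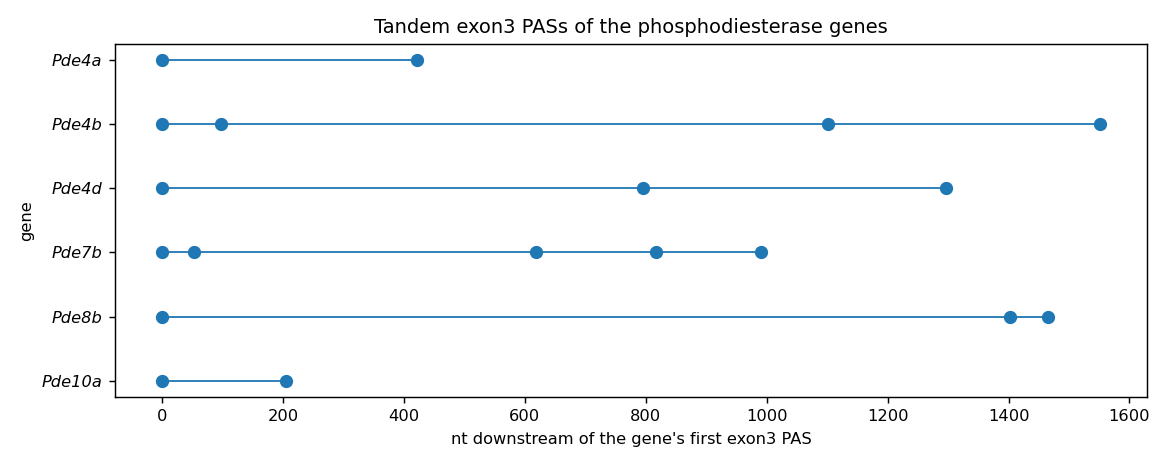
Position of each exon3 PAS in nt downstream of the first exon3 PAS of its gene (horizontal axis) for the 6 PDE genes with at least 2 such sites (vertical axis). Each point is a listed site and the line joins the first to the last, from 205 nt in *Pde10a* to 1552 nt in *Pde4b*.

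The other genes named for cyclic nucleotide PDEs give the family background. Of 16 such genes looked up, 15 were in the list with 68 entries, and *Pde6a* had none here. At least 2 exon3 PASs were listed for 6 of these 15 genes, an intronic PAS for 7 and a UA PAS for 5. *Pde6d*, which encodes a prenyl-binding protein, and *Pde6g* and *Pde6h*, which encode inhibitory subunits, carry no catalytic activity, and each had a single exon3 PAS. Without them the counts stand against 12 genes in place of 15. Intronic entries were 27 of the 54 intronic and exon3 entries (50.0%, Wilson 95% interval 37.1 to 62.9%), against 8 of 29 in the 8 genes described (27.6%, 14.7 to 45.7%) and 32.7% over the list. These intervals cover counting error only, and the sites of a gene are not independent. The shares count sites of the list as deposited, to which no minimum of reads or of relative abundance was applied here, so they are not shares of the sites that such limits would leave. *Pde11a* and *Pde6b* supplied 19 of the 27 intronic entries, 13 and 6, and neither gene had an exon3 PAS. *Pde6b* encodes a subunit of the photoreceptor PDE. *Pde3a*, which encodes a cGMP-inhibited PDE, had 6 exon3ext PASs and no exon3 PAS. All 27 intronic entries of these genes were labelled intron_Comp, so the 3 intron_Skip entries of the family were those of *Pde1a* and *Pde7b*.

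Closest in type to a gene described, *Pde7a* had 3 PASs and none in an intron, where *Pde7b* had 8. *Pde8a* had 4 PASs, 1 of them intronic, where *Pde8b* had 3 exon3 sites. *Pde1c* had 11 PASs with an exon3 span of 5657 nt, and *Pde1b* a single exon3 PAS, where *Pde1a* had 2 PASs. *Pde4c* had exon3 PASs 84 nt apart, the shortest span of the 4 PDE4 genes. Paralogs of a PDE type thus differed in the number and place of their listed PASs. How far these differences follow from the number of reads of each gene was not tested, since the read counts were not used.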

How the data were processed

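The 12 libraries were prepared by 3′READS+ from hippocampal mini-slices, 3 for each of control and LTP at 1 hr and 3 hr. The authors mapped the reads with Bowtie2 (version not given in the sources used here) to mm9, defined PASs from reads that begin with Ts absent from the genome, and merged nearby PASs. The position column that the authors deposited (unit: other) was the one used. It was read with the symbol, chromosome, strand and region label of each site. The 12 columns of counts were not used, because their names match no sample's labels and a match by column order or by totals was not accepted. No library depth, test or replicate error is therefore given.

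Sites and distances were counted in Python 3.11.15 (numpy 2.4.6, pandas 2.3.3), with Wilson intervals from scipy 1.17.1 and figures from matplotlib 3.10.9. The functions were tested on simulated data. Distances follow the gene's strand. All 8 symbols matched an Ensembl ID and the same chromosome and strand in GENCODE M21 (GRCm38), from which only 3′UTR lengths of protein-coding transcripts were taken. All members were named, with the other PDE genes as a group. Members and lists were chosen with earlier results of these data known.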

Additional observations from a re-analysis of the deposited data

How the results depend on the processing

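Without sites labelled UA the PDE genes had 29 PASs in place of 31, and 27 when sites of a gene within 100 nt of each other were counted once. Under that last setting the intronic share was 28.0% in place of 27.6%, and the median exon3 span 1116.5 nt in place of 1143 nt. Adding exon3ext sites to the 3′UTR sites, or leaving out sites listed under more than 1 gene, could change none of these values. The PDE genes had no site of either kind. In these 4 settings, 6 genes had at least 2 3′UTR PASs and 3 had an intronic PAS. Only joining sites within 100 nt could have lowered the former count, and no setting could have changed the latter, so these counts are hardly tested. Leaving out *Pde6d*, *Pde6g* and *Pde6h*, a setting chosen after seeing the data, moved the share of the other PDE genes with at least 2 exon3 PASs from 40% to 50%, and the share with an intronic PAS from 46.7% to 58.3%. Each of the genes left out had a single exon3 PAS and no intronic PAS. Only the number of genes in the denominator changed, so both shares could only rise. That both stayed within the counting error of the former share is therefore no test of them. The planned count settings (normalization, low-count filter, exon3-only sums, abundance limit, the outlier library, each library left out) were not run, since the count columns were not used. No paired analysis was possible because no read counts were assigned to animals. Sequencing depth, which limits which PASs can be listed, was not analysed here.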
